A study of Mus musculus with 6 samples.

Results

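The genes described are 8 small calcium-binding proteins of neurons, taken by name from the 54532 genes of the table. They were 6 sensors of the visinin-like type (Hpca, Hpcal1, Hpcal4, Ncald, Ncs1 and Vsnl1) and 2 calbindins (Calb1 and Calb2). They were picked out of the table by name. RNA was sequenced from N2a cells, a mouse neuroblastoma line also called Neuro2A, in 3 libraries of cells given the control siRNA si-NC and 3 of cells given si-circRtn4, an siRNA against the circular RNA circRtn4. All 6 libraries come from the same line. The labels name MEM with FBS as the medium for both groups, whereas the study's general methods put transfected N2a cells into retinoic acid medium before harvest, so the values may be of undifferentiated or differentiated cells. The study asked which genes change when circRtn4 is knocked down. Values are FPKM, in which the fragments on a gene are divided by the gene's length and by the library's total.

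Calcium entering a neuron is read by small proteins whose EF-hand loops bind the ion. The visinin-like sensors carry a fatty acid, myristate, at their start, and in several of them calcium exposes it so that the protein moves to membranes. Hippocalcin (Hpca) is abundant in the hippocampus and acts on slow potassium currents and synaptic plasticity, and neuronal calcium sensor 1 (Ncs1) acts on exocytosis, on phosphatidylinositol 4-kinase and on the inositol trisphosphate receptor. Calbindin (Calb1) and calretinin (Calb2) mainly buffer calcium and mark subsets of neurons. HPCA has been reported by other workers as a target of miR-24-3p in human neuroblastoma cells, and circRtn4 was studied here as a sponge of this microRNA.

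The start of the coding sequence shows a feature that the choice by name did not use. The first 24 coding bases of each gene, read from GENCODE M21 transcripts (GRCm38), are printed with codon 2 in capitals.
Hpca: atgGGCaagcagaacagcaagctg
Hpcal1: atgGGCaagcagaacagcaagctg
Hpcal4: atgGGGaaaaacaacagcaagctg
Ncald: atgGGGaaacagaacagcaagctg
Ncs1: atgGGGaaatccaacagcaagttg
Vsnl1: atgGGGaaacagaatagcaaactg
Calb1: atgGCAgaatcccacctgcagtca
Calb2: atgGCTggcccgcagcagcagccc
All 6 sensors have GG in the first bases of codon 2, which gives glycine, the residue that takes the myristate, whereas both calbindins do not. Of 21410 protein-coding genes that start with ATG, 7.23% have GG there. Hpca and Hpcal1 share all 24 bases, and their whole coding sequences of 582 bases each (stop codon included) are 86.1% identical. Hpca is 79.5% identical to Ncald, 71.4% to Hpcal4, 70.7% to Vsnl1 and 65.5% to Ncs1, and 46.0% and 46.2% to Calb1 and Calb2. The longest stretch that the coding sequences of Hpca and Hpcal1 have in common is 38 bases, and it is 46 bases for Hpca and Ncald. Reads that fall wholly in such a stretch could be counted for either gene.

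The libraries held 13541198 to 15122063 reads on genes, recovered from FPKM and gene length. Of the 12 markers of neuroblastoma and sympathetic neurons, 12 had a mean of at least 1 FPKM, with Hand2 at 178 to 238 FPKM and Phox2a at 129 to 218 FPKM. Their summed level was 1041 to 1160 FPKM in si-NC and 765 to 1065 FPKM in si-circRtn4. In the test described below 4 of the 12 fell and 1 rose, beside 4.82% and 4.36% of all genes tested. The part of this shift in the results was not tested. None of the 5 fibroblast, 4 macrophage and 3 endothelial markers had a mean of 1 FPKM. Cd68 (macrophage) and Pecam1 (endothelium) were the highest of their lists, at 0.264 to 1.32 and 0.299 to 0.777 FPKM over the libraries. Ptprc, Cdh5 and Kdr were at most 0.0167 FPKM in every library. FPKM of Rtn4 does not separate reads of linear and circular RNA, so the loss of circRtn4 itself could not be read from the table. Rtn4 was at 61.0 to 69.8 FPKM in si-NC and 50.1 to 62.7 FPKM in si-circRtn4. Chd5, the chromatin remodeler that the study followed, was at 10.4 ± 1.22 FPKM in si-NC and 3.83 ± 0.262 FPKM in si-circRtn4 (SD, n = 3 each).

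N2a cells expressed 3 of the 8 genes well, 1 weakly and 4 hardly or not at all. Over the 6 libraries the mean was 27.5 FPKM for Ncs1, 23.7 for Hpca, 8.36 for Hpcal1 and 0.517 for Hpcal4. By its mean, Ncs1 was number 2132 and Hpca number 2512 among the 28442 genes above 0 in at least 1 library. From Hpca down to Hpcal4 each gene lay above the next in 6 of 6 libraries, without overlap of their ranges. The order of the first 2 genes depended on the group. Hpca lay above Ncs1 in all 3 si-NC libraries, and Ncs1 lay above Hpca in all 3 si-circRtn4 libraries.

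Ncs1 (ENSMUSG00000062661, plus strand of chr2:31245823-31295989, GRCm38) rose. It was at 22.5, 21.4 and 21.8 FPKM in si-NC replicates 1, 2 and 3 and at 32.2, 33.2 and 33.8 FPKM in si-circRtn4 replicates 1, 2 and 3. The 3 control libraries lay within about 1 FPKM of each other and every si-circRtn4 library lay far above them. The means were 21.9 ± 0.516 and 33.1 ± 0.809 FPKM (SD, n = 3 each), so that Ncs1 reached 151% of its control mean after si-circRtn4. The SD was 2.36% and 2.45% of the mean in the 2 groups, close to the counting error of 2.60% and 2.10% that 1421 to 2408 reads per library carry. On the log2(FPKM + 1) scale Ncs1 went up by 0.57 with a standard error of 0.065, and limma gave it a Benjamini-Hochberg adjusted p of 0.00352 over 12749 genes. At an adjusted p under 0.05, 4.36% of the genes tested were higher and 4.82% lower, so 47.5% of the calls were higher (71.2% after rescaling to TPM and 52.4% after the same rescaling without the gene Gm23935, with Ncs1 called under both). Of the genes tested, 108 had a smaller p than Ncs1, and 249 of the 556 genes that rose had a larger change. The groups of Ncs1 did not overlap (p = 0.1 in a two-sided exact permutation test, which 3 libraries against 3 cannot go below), as was the case for 16.2% of the genes tested in this direction. In 13 alternatives the change lay between 0.56 and 0.68, with an adjusted p of 0.000397 to 0.0230 in limma. With the replicate number as a block, where 9.29% of the genes were called higher, it was 0.00459. Nothing in the labels says that the libraries come from separate cultures, so p-values measure the spread between these libraries, which may be technical. In bulk RNA, more cells that express a gene and more RNA per cell cannot be told apart.

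Hpca (ENSMUSG00000028785, minus strand of chr4:129111570-129122036) was lower in si-circRtn4, a difference that was called only when the replicate number was part of the fit. It was at 32.6, 25.3 and 24.3 FPKM in si-NC replicates 1, 2 and 3 and at 23.9, 17.8 and 18.5 FPKM in si-circRtn4 replicates 1, 2 and 3. Replicate 1 was the highest of each group, and si-circRtn4 replicate 1 came within 1 FPKM of si-NC replicate 3 without reaching it. The means were 27.4 ± 4.52 and 20.1 ± 3.32 FPKM (SD, n = 3 each), and Hpca was left at 73.3% of its control mean. The SD was 16.5% of the mean in each group, against a counting error of 2.93% and 3.40% with 786 to 1437 reads per library. The log2 change of -0.43 (standard error 0.14, 95% interval -0.77 to -0.09) had an unadjusted p of 0.0190 and an adjusted p of 0.111 in limma. An unadjusted p under 0.05 with a lower level was found for 12.8% of the genes tested, and groups without overlap in this direction for 15.5% (two-sided exact permutation test for Hpca, p = 0.1). Compared within replicate numbers 1, 2 and 3, Hpca was at 73.3%, 70.6% and 76.0% of the matching control. The fit with the replicate number as a block gave the same change with a standard error of 0.054 and an adjusted p of 0.00820, where 9.75% of the genes were called lower. In the other 12 alternatives the change lay between -0.56 and -0.30 and the adjusted p between 0.0731 and 0.272. The 3′ end of Tmem54 on the opposite strand shares 57 bases, 1.95% of the exon bases of Hpca, and Tmem54 was at 4.99 to 7.32 FPKM. Whether the counting used strand is not given in the sources used here, so reads on these bases may belong to either gene.

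Hpcal1 and Hpcal4, the hippocalcin-like sensors, did not pass the test. Hpcal1 (ENSMUSG00000071379, plus strand of chr12:17690856-17791933) was at 11.02, 7.86 and 7.25 FPKM in si-NC replicates 1, 2 and 3 and at 8.75, 7.24 and 8.03 FPKM in si-circRtn4 replicates 1, 2 and 3, and the groups overlapped. Its log2 change was -0.09 with a 95% interval from -0.43 to 0.25 (adjusted p = 0.750 in limma), and without si-NC replicate 1 it was 0.07. Hpcal4 (ENSMUSG00000046093, plus strand of chr4:123183227-123194701) was at 0.856, 0.533 and 0.468 FPKM in si-NC and at 0.606, 0.289 and 0.348 FPKM in si-circRtn4, in the order of the replicate numbers. These values rest on 24 to 69 reads per library and overlapped between the groups, with p = 0.3 in a two-sided exact permutation test. Within the replicate numbers Hpcal4 was at 70.7%, 54.2% and 74.3% of its si-NC level. With a mean under 1 FPKM it was outside the main test. Tested with no filter it changed by -0.19 (standard error 0.14, adjusted p = 0.603 in limma over 28442 genes). As for Hpca, replicate 1 was the highest library of each group for both genes.

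**Figure D1:**
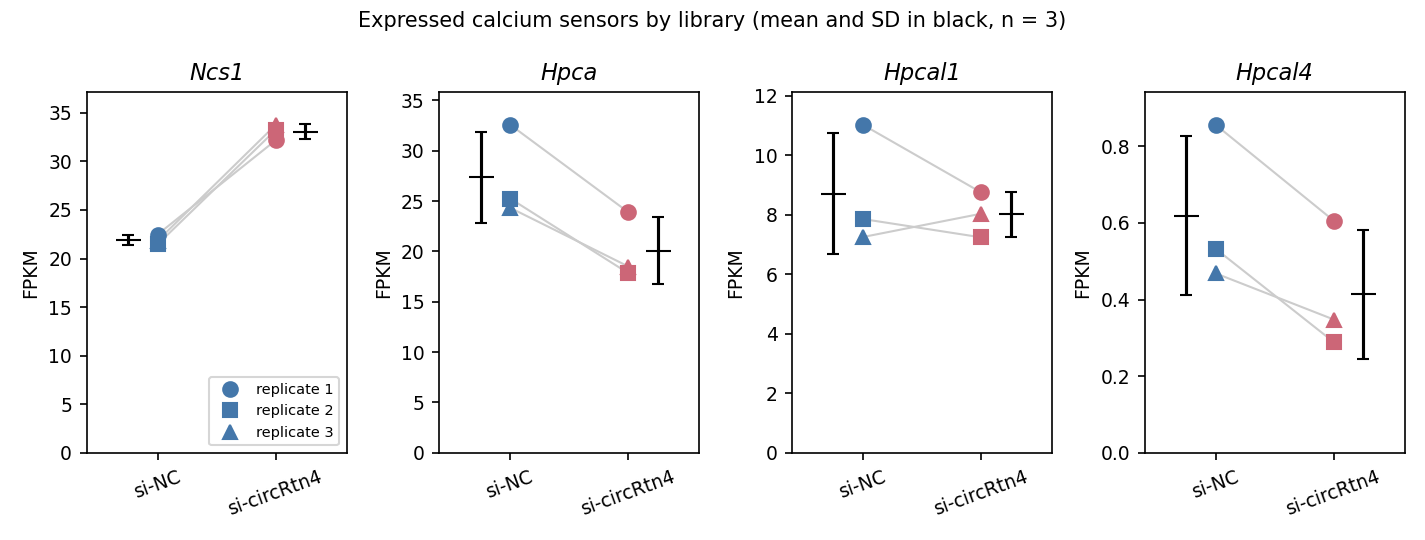
FPKM (y axis, from 0) of the 4 expressed sensors in each library, with si-NC in blue and si-circRtn4 in red; symbols and grey lines mark the replicate number, and black bars give the mean and SD (n = 3). Ncs1 moves from about 22 to about 33 FPKM with hardly any spread, whereas all 3 Hpca lines run down from 32.6, 25.3 and 24.3 FPKM.

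The other 4 genes gave next to no reads. Ncald (neurocalcin delta, ENSMUSG00000051359, minus strand of chr15:37366175-37792570) had 2, 1 and 0 reads in si-NC and 4, 0 and 0 reads in si-circRtn4, which is at most 0.0328 FPKM. Vsnl1 (visinin-like 1, ENSMUSG00000054459, minus strand of chr12:11325242-11436613) had 1 read in si-circRtn4 replicate 1 and 0 in the other libraries. Calb1 (ENSMUSG00000028222, plus strand of chr4:15881264-15908064) and Calb2 (ENSMUSG00000003657, minus strand of chr8:110137502-110168210) had 0 reads in 6 of 6 libraries. A count of 0 allows up to 3 reads, which corresponds to 0.0398 to 0.0442 FPKM for Calb1, 0.111 to 0.123 FPKM for Calb2 and 0.0985 to 0.110 FPKM for Vsnl1 over the libraries. These limits cover counting error only. No difference between the groups was detectable for these genes at this depth, and no fold is given.

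Since Ncs1 and Hpca made up most of the sensor RNA, the makeup of the family differed between the groups while its sum did not separate them. The summed FPKM of the 6 sensors was 58.6 ± 7.22 in si-NC and 61.6 ± 3.53 in si-circRtn4 (SD, n = 3 each, ranges overlapping). Ncs1 held 33.6%, 38.9% and 40.5% of this sum in si-NC replicates 1, 2 and 3 and 49.1%, 56.7% and 55.7% in si-circRtn4 replicates 1, 2 and 3. Hpca held 48.7%, 45.8% and 45.2% in si-NC and 36.5%, 30.4% and 30.5% in si-circRtn4. Neither share overlapped between si-NC and si-circRtn4 (p = 0.1 each, two-sided exact permutation test, the least it can give here). For the FPKM of single genes, groups without overlap were found for 16.2% of the genes tested in the higher and 15.5% in the lower direction. The share of Ncs1 was 16.2 percentage points higher in si-circRtn4 and that of Hpca was 14.1 points lower. A share within a library is not moved by how the whole library is scaled. Hpcal1 held 13.5% to 16.5% in si-NC and 12.4% to 13.4% in si-circRtn4, so that its groups nearly touched. They did not overlap either (p = 0.1, two-sided exact permutation test), although the level of Hpcal1 itself was not called. Its mean difference of -1.74 points became -0.87 points without si-NC replicate 1. Shares of 1 sum are tied to each other, so a larger Ncs1 share lowers the others, and the lower shares of Hpca and Hpcal1 are not separate from the rise of Ncs1. The ratio of Ncs1 to Hpca, a measure added after the values had been seen, was 0.690, 0.849 and 0.897 in si-NC and 1.35, 1.86 and 1.82 in si-circRtn4.

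**Figure D2:**
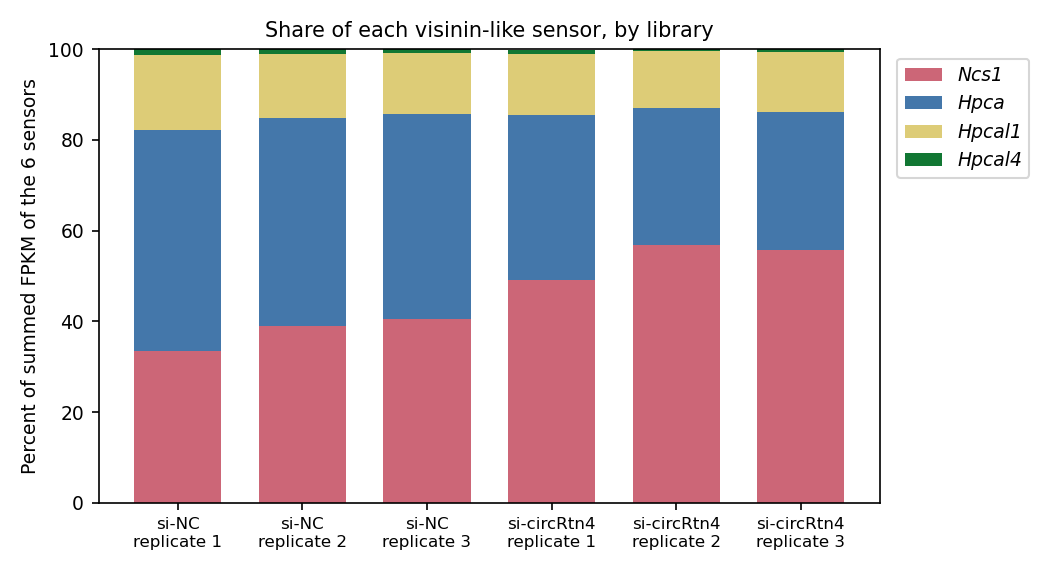
Percent (y axis) of the summed FPKM of the 6 visinin-like sensors that each gene held in each of the 6 libraries; the shares of Ncald and Vsnl1 are too small to be seen and are not drawn. The Ncs1 part grows from 33.6% to 40.5% in si-NC to 49.1% to 56.7% in si-circRtn4, and the Hpca part shrinks.

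The microRNA of the study gave a reason to look at the transcripts of these genes. Mature miR-24-3p, from RefSeq (GRCm38.p6), is transcribed from Mir24-1 (chr13:63301251-63301272, plus strand) and Mir24-2 (chr8:84208875-84208896, plus strand), and its seed of bases 2 to 8 is in capitals.
miR-24-3p: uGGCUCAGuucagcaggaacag
The site that pairs with this seed is CTGAGCC. It occurs in the longest annotated 3′ UTR of 19.6% of 10694 protein-coding genes tested. None of the 8 genes had it there, and none of the 6 protein-coding transcripts of Hpca had it at any position. The study's discussion describes the human HPCA site for this microRNA as poorly conserved in the mouse. The 3′ UTR of Hpca, 858 bases at its longest, also lacked the 6-base core TGAGCC, which occurs in 36.6% of the protein-coding genes tested in the same region. Ncs1 had this core 3 times in its 3′ UTR of 3724 bases and Hpcal4 once, each with neither the C before it nor an A after it. Outside the 3′ UTR, the 7-base letters lie across the stop codon of Ncald in 5 of 5 transcripts, in the 5′ UTR of 2 of these 5, and in the 5′ UTR of Hpcal4 in 2 of 2 transcripts. Only the strand of the transcript was searched, and missing letters do not show that a microRNA does not act on a gene.

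The siRNA has a seed of its own. si-circRtn4 is listed in the study with 19 bases, and with its guide taken as the reverse complement, the site for guide bases 2 to 8 is in capitals.
si-circRtn4: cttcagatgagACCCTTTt
The letters ACCCTTT occur in the longest 3′ UTR of 12.5% of the protein-coding genes tested. Of the 8 genes, Ncs1 held them in its 3′ UTR, at 2 places that are shown because Ncs1 is the gene that rose.
Ncs1, chr2:31294172-31294178, plus strand: ttcctgggtagACCCTTTgctcatgctgtg
Ncs1, chr2:31295547-31295553, plus strand: ccccacccaacACCCTTTacctctgcattc
The second site is followed by A. Of the 6 Hpca transcripts, 1 held the letters in its 5′ UTR. These matches describe the sequence and were not tested as sites.

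**Figure D3:**
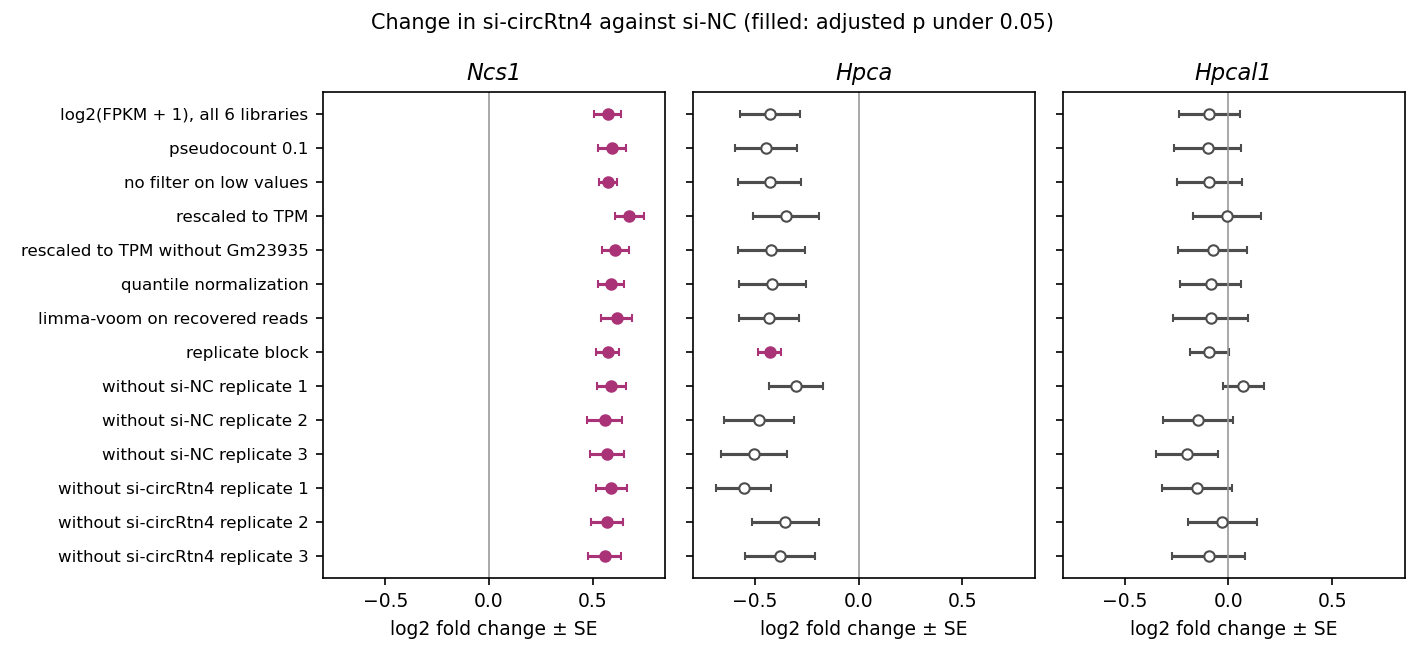
log2 fold change of si-circRtn4 against si-NC (x axis, bars are the standard error) of Ncs1, Hpca and Hpcal1 under the main fit and 13 alternatives (y axis); filled points have an adjusted p under 0.05 in limma. Ncs1 is filled in every row, Hpca lies left of 0 in every row and is filled only with the replicate block, and Hpcal1 lies near 0.

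Calcium-handling genes around this family were read from 8 lists with 87 genes. Of these, 46 were tested, 6 rose, 1 fell and 39 did not pass the test (adjusted p under 0.05 in limma), which is 15.2% called against 9.19% of all genes tested. The count of 6 was not stable. It was 4, 1 and 2 without si-NC replicates 1, 2 and 3, and 3, 1 and 1 without si-circRtn4 replicates 1, 2 and 3. The count of 1 became 3 without si-circRtn4 replicate 3 and 6 with the replicate block. The median log2 change of the 46 genes was 0.03, against 0.002 for all genes tested.

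Itpr1, the inositol trisphosphate receptor that releases calcium from the endoplasmic reticulum and is a known partner of NCS1, was the related gene that fell. It was at 5.60, 5.74 and 5.92 FPKM in si-NC and at 2.87, 2.62 and 3.41 FPKM in si-circRtn4, in the order of the replicate numbers. Each si-circRtn4 library lay well below each control, and groups without overlap in this direction were found for 15.5% of the genes tested. The log2 change was -0.77 (standard error 0.097, adjusted p = 0.00519 in limma), and it was called in 13 of 13 alternatives. Of 14 tested partners and N-myristoyltransferases, 1 rose and 1 fell, which is 14.3% called against 9.19% of all genes tested. The 12 not called included Nmt1 and Nmt2, which attach myristate to the sensors, at log2 changes of 0.07 and 0.02. Pi4kb, the lipid kinase that NCS1 binds, was at 10.9 ± 0.696 and 10.1 ± 1.40 FPKM (SD, n = 3 each; adjusted p = 0.589 in limma). Arf1, a small GTPase of the Golgi that works with that kinase, rose from 162 ± 18.5 to 251 ± 26.1 FPKM (SD, n = 3 each). Its log2 change was 0.64 (standard error 0.12, adjusted p = 0.0184 in limma), and it was called in 9 of 13 alternatives. Leaving out replicate 2 of either group or replicate 3 of si-circRtn4 ended this call, as did testing with no filter on low values, and the adjusted p then reached 0.0756 in limma.

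Tesc (tescalcin, an EF-hand protein that is myristoylated like the sensors) rose. It was at 34.3, 28.3 and 31.8 FPKM in si-NC and at 45.7, 49.9 and 52.5 FPKM in si-circRtn4. Its groups did not overlap, as was the case for 16.2% of the genes tested in this direction. The log2 change was 0.64 (standard error 0.094, adjusted p = 0.00930 in limma), and it was called in 13 of 13 alternatives. Tesc was the only one called among 5 tested small EF-hand proteins, beside 9.19% of all genes tested. Of 6 tested S100 proteins, which are EF-hand proteins that act as dimers, 6 had a positive log2 change (median 0.44) and 3 rose, beside 6421 positive changes among all 12749 genes tested and 4.36% of them called higher. S100a1 was at 10.8 to 15.4 FPKM in si-NC and at 18.1 to 20.3 FPKM in si-circRtn4, with a log2 change of 0.54 and an adjusted p of 0.0349 in limma. S100a10 and S100a13 were the others, named after their values were seen, with log2 changes of 0.40 and 0.49. With 1 library left out at a time, S100a1 and S100a10 were each called in 1 of 6 fits and S100a13 in 0 of 6.

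In the remaining lists 1 gene was called. Over all genes tested the share called was 9.19%, so a count of 0 in lists this small says little. The 3 other neuronal calcium sensors tested, Guca1a, Guca1b and Kcnip3, had log2 changes of -0.25, 0.26 and 0.18, and 0 of 3 were called in limma or at an unadjusted p under 0.05. Guca1a, known as a guanylate cyclase activator of photoreceptors, was at 22.1 to 33.6 FPKM over the libraries, about as high as Hpca, whereas Rcvrn (recoverin) and Kcnip1 were listed at 0 in every library. Calmodulin, the general calcium sensor, was far more abundant than the visinin-like sensors, with Calm2 and Calm3 at 248 ± 30.3 and 262 ± 7.80 FPKM in si-NC (SD, n = 3 each). Of the 4 calmodulin-type genes tested 0 were called, with a median log2 change of -0.15 and 1 lower at an unadjusted p under 0.05. Over all genes tested, 13.1% were higher and 12.8% lower at this unadjusted threshold in limma. Of the 6 calcineurin genes 0 were called either (median -0.04, 1 lower at an unadjusted p under 0.05). Among 8 calmodulin-dependent kinases Camkk2 rose by 0.31 on the log2 scale, a call it lost in each of the 6 fits that left out 1 library. Of these 8 kinases, 2 were higher and 3 lower at an unadjusted p under 0.05, beside the 13.1% and 12.8% of all genes tested. Uncalled kinases, named after their values were seen, went both ways. Camkv and Camk2d had log2 changes of -0.74 and -0.38, with adjusted p of 0.0521 and 0.0508 in limma, and 0.0368 and 0.0239 with the replicate block. Camk1 and Camkk1 had log2 changes of 0.49 and 0.31, with adjusted p of 0.0707 and 0.297 in limma, and 0.0283 and 0.0433 with the replicate block. The 4 other buffers listed, Pvalb, Ocm, S100g and Scgn, were too low to be tested.

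**Figure D4:**
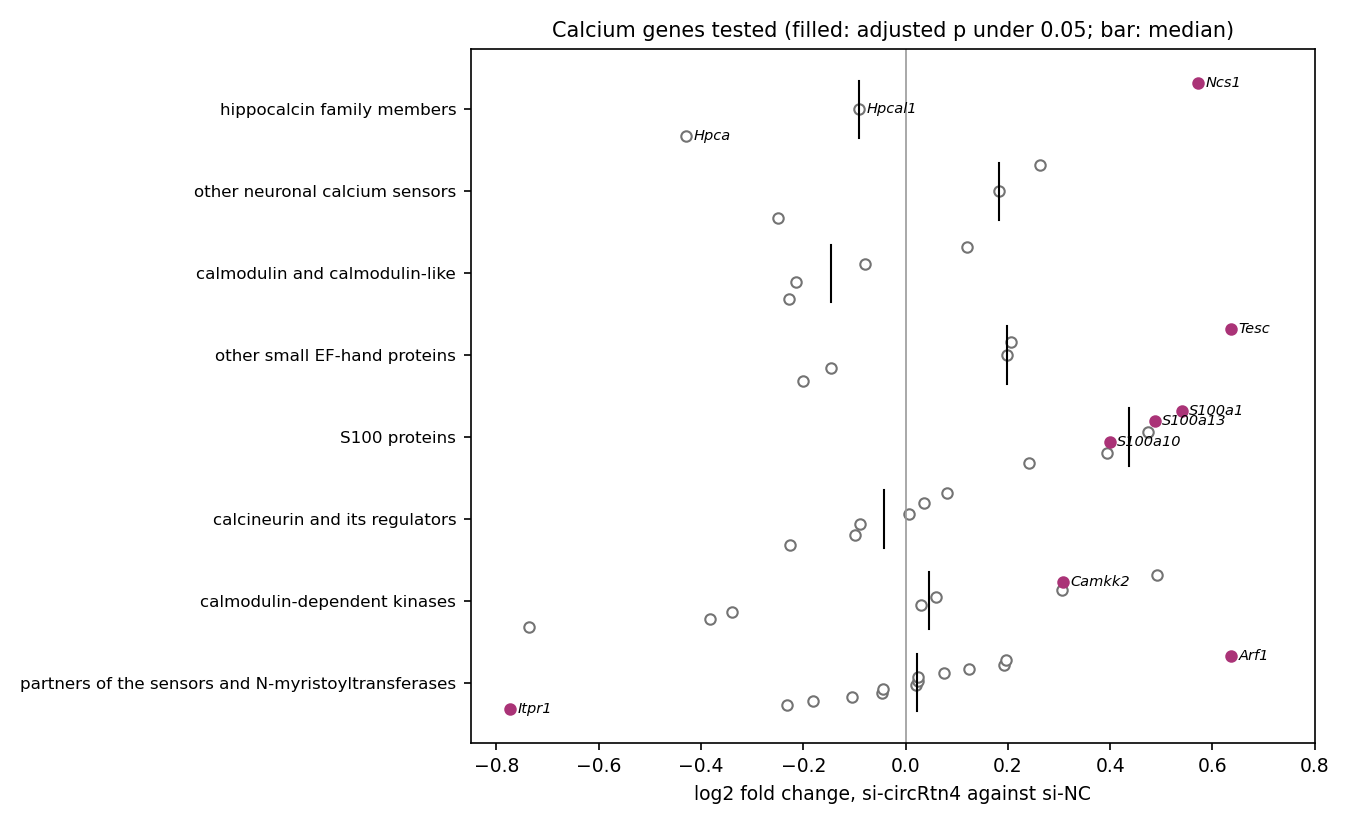
log2 fold change (x axis) of each tested gene by list (y axis), 1 point per gene, with filled points at an adjusted p under 0.05 in limma and a bar at the median of the list. Ncs1, Tesc and Arf1 lie near 0.6, Itpr1 lies at -0.77, and all 6 S100 points lie right of 0.

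The genes whose pattern was most like that of Hpca were taken among 10782 other protein-coding genes tested, by Pearson's r of log2(FPKM + 1) over the 6 libraries. They were Mon1b (r = 0.998), Lgals4, Zmym3, Mxra8 and Kank2 (r = 0.993 for the last). None of these 5 was called between the groups in limma (adjusted p of 0.0902 to 0.186). In all, 134 genes had an r above 0.95. Within the groups, with the group means taken out, the closest were Hspa12a, Peak1, Ppm1f, Kif1bp and Catsperg1 (r = 0.9997 to 0.998), and 342 genes had an r above 0.95. Of the family, Hpcal1 had an r with Hpca of 0.75 as measured and of 0.90 with the group means taken out, and Ncs1 one of -0.77 and -0.04. The 6 points share 1 cell line and the library differences seen for Hpca, so these values describe the libraries only.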

How the data were processed

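The authors deposited one table of FPKM with coordinates and a length for each gene. How reads were counted is not given in the sources used here. The submitters' processing notes list Bowtie 0.12.2 and the builds mm8 and mm9, whereas 98.2% of the 54532 listed genes have GENCODE M21 (GRCm38) coordinates. Another 6 of its columns match no sample and were left out. FPKM times gene length gave whole multiples of 1 step (within 0.01) for 100% of values in each library, from which reads were recovered. Values were tested as log2(FPKM + 1), which understates changes of low genes, with limma 3.58.1 in R 4.3.3 (lmFit, eBayes with trend) on 12749 genes whose mean reached 1 FPKM, adjusted by Benjamini-Hochberg. Of the 8 genes, 3 passed this filter.

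Members and lists were chosen with earlier results of these data known. The rule for named genes took the 8 members, Chd5 and Rtn4, up to 3 called genes per direction from the related lists, list members whose level a result turns on, and the 5 genes most like Hpca with and without the group means. The other list genes given with values were named after their values were seen. Markers also covered glia (1 of 5 at a mean of 1 FPKM or more), cortical neurons (2 of 6) and retinoic acid response (2 of 5). In the retinoic acid list Cyp26b1 was at 59.1 to 117 FPKM and Stra6 at 1.77 to 4.01 FPKM. Cyp26a1 and Dhrs3 were at most 0.161 and 0.0453 FPKM, and Rarb was at 0 in every library. What these levels say of the medium was not tested. Libraries with the same replicate number deviated together (r = 0.331, 0.190 and 0.226 for numbers 1, 2 and 3, and at most 0.00913 otherwise). Deviations from a group mean cancel within each group, so part of this contrast is built in. The main fit treated the groups as unpaired. The replicate number was used as a block in an alternative fit and to compare libraries within a number. The labels do not say what libraries of the same number share. On simulated reads for this comparison (12796 genes, fold 2, dispersion 0.01), limma recovered 91.8% of 194 changed genes with 4.81% false calls. Ncs1 and Hpca changed by less than this fold, and the simulated libraries had no deviation shared by replicate number. The recovery rate therefore does not apply to changes of their size. Sequences came from GENCODE M21 and RefSeq with Python 3.11.15 and biopython 1.88.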

Additional observations from a re-analysis of the deposited data

How the results depend on the processing

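Ncs1 kept its direction and its call in 13 of 13 alternatives (log2 change 0.57 to 0.68, and 0.56 to 0.59 with 1 library left out). Hpca kept its direction in 13 of 13 (-0.56 to -0.30 with 1 library left out) and was called in 1, the fit with the replicate block (-0.43, adjusted p = 0.00820 in limma), which made 1 gene of the 8 called lower in place of 0. Hpcal1 reversed without si-NC replicate 1, to 0.072 (-0.20 to 0.072 with 1 library left out), and the cause was not tested. The block changed no other call of the 3 genes of the 8 that were fitted with it. Of all genes, 556 rose and 615 fell, against 1185 and 1243 with the replicate block, 210 and 261 with no filter (over 28442 genes), and 163 to 407 and 217 to 419 with 1 library left out. Rescaling to TPM gave 972 and 393, which is 71.2% higher in place of 47.5% (592 and 538, or 52.4% higher, without Gm23935), and limma-voom on recovered reads gave 902 higher. Of the related calcium genes, 6 rose and 1 fell, against 1 and 2 with no filter. Those that fell numbered 2 with a pseudocount of 0.1, 2 after quantile normalization, 3 in limma-voom and 6 with the replicate block. With 1 library left out, 1 to 4 rose and 1 to 3 fell. With 1 library left out, the share of the sensor sum differed by 14.1 to 18.5 percentage points for Ncs1, -16.1 to -13.0 for Hpca and -2.37 to -0.87 for Hpcal1. Depth limits Hpcal4, Ncald, Vsnl1, Calb1 and Calb2, which had at most 69 reads in a library.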
